A study of Homo sapiens with 6 samples.

Results

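The 39 genes described here are the aminoacyl-tRNA synthetases and 3 proteins that hold some of them together. They were chosen by symbol from a table of transcript counts that held 18768 genes with a count, and each member was the sum of its transcripts. The members fall into 20 cytosolic genes, 16 genes for mitochondrial enzymes, which are the synthetase symbols ending in 2, and 3 scaffold genes, AIMP1, AIMP2 and EEF1E1. All 39 had counts in every library and all passed the filter on low counts.

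The libraries are labelled HCT116, a human colorectal carcinoma line, which the study grew in DMEM with serum. Cells of the si-AC010789.1 group were transfected with small interfering RNA against the long non-coding RNA AC010789.1, and cells of the siRNA-NC group with a negative control siRNA, with 3 libraries in each group. By the labels both groups are cells of 1 line, named control or Si-AC010789.1. That the control cells were transfected with a control siRNA is taken from the study, which names them siRNA-NC. The time between transfection and extraction was not given in the sources used here. The level of AC010789.1 itself was not analysed here, so the knockdown was not checked from these counts. The study describes a check of its own on the sequenced samples, which was not used here.

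An aminoacyl-tRNA synthetase joins an amino acid to its matching tRNA, the charged tRNA that the ribosome then reads. Cytosolic and mitochondrial protein synthesis use mostly separate enzymes, all encoded in the nucleus, while GARS and KARS supply both compartments from 1 gene each. Uncharged tRNA activates the kinase GCN2, which phosphorylates eIF2 and raises the translation of the transcription factor ATF4, and many cytosolic synthetase genes are known ATF4 targets through an element of the form TGATGCAA.

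The libraries held 11277222 to 13443866 counts, at which 3 counts equalled 0.223 to 0.266 CPM (each count scaled to a common library size). Of the 8 markers of a colorectal epithelial line that were checked, KRT8 (444 to 850 CPM) and KRT18 (351 to 535 CPM) were abundant, EPCAM stood at 3.10 to 5.59 CPM, CDH17 and LGALS4 did not exceed 0.225 CPM, and KRT19, CDX2 and VIL1 had no count. The 6 fibroblast markers summed to 59.6 to 69.2 CPM in siRNA-NC and 63.8 to 68.6 CPM in si-AC010789.1, with COL1A1 at 37.8 to 48.0 CPM and PDGFRB at 16.4 to 19.0 CPM, whereas COL1A2 and LUM had no count. Leukocyte markers summed to 6.90 to 9.05 CPM in siRNA-NC and 3.72 to 6.31 CPM in si-AC010789.1, mostly CD68, and endothelial and hepatocyte markers summed to at most 2.51 and 0.479 CPM. KRT19, CDX2, VIL1, CDH17 and LGALS4 were thus near or at 0 in libraries labelled HCT116, and EPCAM was low beside KRT8 and KRT18. These markers leave the identity of the cells uncertain. It was not tested further, nor was its part in the results below.

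The ATF4 element is printed first because it is the sequence by which many cytosolic synthetase genes are known to be switched on together. RefSeq promoters (GRCh38.p14, 250 bases before to 50 bases after the start) were matched for 33 of the 39 members. TGATGCAA was found on either strand in 6 of the 16 cytosolic promoters, in 0 of the 14 mitochondrial promoters and in 304 of all 35116 promoters of that length (0.866%). The 30-base windows below run 5′ to 3′ on the gene's strand with the element in capitals. It reads TTGCATCA, the reverse complement, in 5 of them.
AARS (minus strand of chr16:70289675-70289704): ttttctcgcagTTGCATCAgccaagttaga
CARS (minus strand of chr11:3057407-3057436): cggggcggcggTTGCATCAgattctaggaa
IARS (minus strand of chr9:92293692-92293721): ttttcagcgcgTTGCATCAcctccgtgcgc
MARS (plus strand of chr12:57488053-57488082): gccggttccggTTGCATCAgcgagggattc
NARS (minus strand of chr18:57621804-57621833): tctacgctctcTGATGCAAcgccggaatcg
TARS (plus strand of chr5:33440956-33440985): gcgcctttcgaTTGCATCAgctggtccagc

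In IARS, MARS and CARS the element began 13, 4 and 2 bases before the RefSeq start, in TARS and NARS at base 3 and base 15 after it, and in AARS at base -187. With 1 free base, TGATGNAA, which includes every TGATGCAA, 3.62% of all promoters held a match, and 2 members were added. They were the glycyl enzyme gene GARS and, as the 1 mitochondrial member, the tyrosyl enzyme gene YARS2.
GARS (plus strand of chr7:30594834-30594863): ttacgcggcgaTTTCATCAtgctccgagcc
YARS2 (minus strand of chr12:32756076-32756105): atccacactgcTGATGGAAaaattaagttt

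Another motif, the E-box CACGTG that MYC and related factors bind, was present on either strand in 7.26% of all promoters and in those of IARS, CARS2, EARS2, MARS2 and AIMP2. CACGTG neither contains nor is contained in the ATF4 element. A match describes only the letters of the window.

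Cytosolic synthetase mRNAs were far more abundant than mitochondrial ones. In bulk libraries, fewer expressing cells and less RNA per cell cannot be told apart. On the TPM scale, which corrects for transcript length, the median level over the 6 libraries was 142 TPM for the 20 cytosolic genes, 25.3 TPM for the 16 mitochondrial genes and 53.0 TPM for the 3 scaffold genes, beside 22.9 TPM for all genes tested. The threonyl enzyme gene TARS was the most abundant member, with 526, 483 and 456 TPM in siRNA-NC and 469, 424 and 482 TPM in si-AC010789.1. GARS followed with 389, 269 and 319 TPM and with 354, 326 and 281 TPM. The ranges of these 2 genes did not meet, so TARS ranked above GARS in every library.

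The seryl enzyme gene SARS (230 to 242 TPM) and EPRS (221 to 242 TPM), which encodes the fused glutamyl and prolyl enzyme, came next and could not be ordered against each other within their spread. At the lower end of the cytosolic genes stood FARSB, the beta chain of the phenylalanyl enzyme, at 27.4 to 31.4 TPM, and the cysteinyl gene CARS at 51.7 to 63.0 TPM. The alpha chain gene FARSA, whose product pairs with FARSB, was listed at 150 to 173 TPM.

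Among the mitochondrial enzymes, the isoleucyl gene IARS2 (138 to 153 TPM) and the cysteinyl gene CARS2 (90.8 to 111 TPM) stood apart from the other 14, which did not exceed 55.3 TPM in any library. The lowest were the prolyl gene PARS2 (3.47 to 4.23 TPM) and the methionyl gene MARS2 (7.47 to 10.7 TPM).

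**Figure D1:**
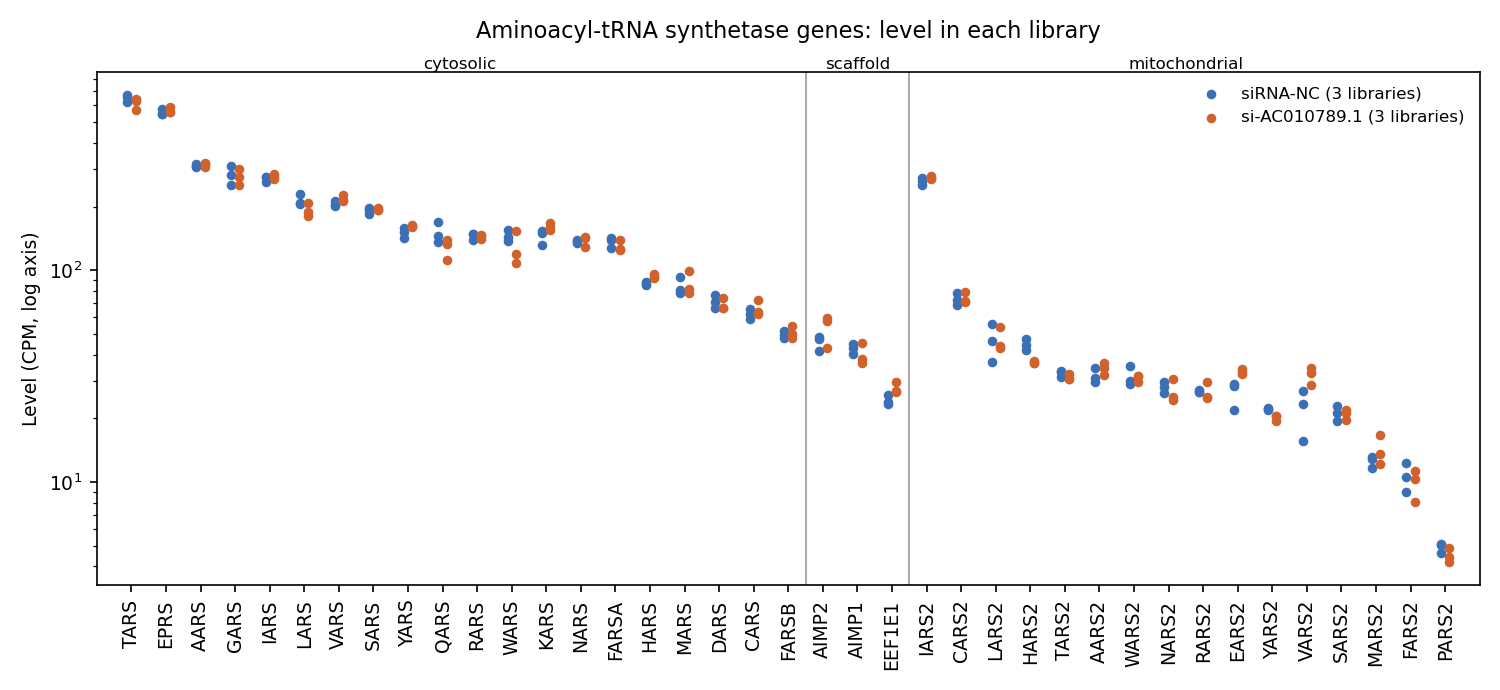
Level of each of the 39 genes in CPM (log axis), one point per library, with the 3 siRNA-NC libraries in blue and the 3 si-AC010789.1 libraries in orange. Genes are ordered by their siRNA-NC mean within the cytosolic, scaffold and mitochondrial classes, and the blue and orange points of most genes overlap.

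Each mitochondrial gene was set against the cytosolic gene for the same amino acid. FARS2 was set against FARSA and not against FARSB, and EPRS served for both EARS2 and PARS2. In 14 of 16 pairs the mitochondrial gene was lower in every library, with a median ratio of 7.46 in TPM. The ratio was highest for EPRS over PARS2, from 53.8 to 66.3. CARS2 exceeded CARS in every library, with CARS over CARS2 at 0.523 to 0.569, and IARS and IARS2 were nearly equal, with a ratio of 0.902 to 1.006. For the histidyl pair HARS over HARS2 the ratio was 1.38, 1.85 and 1.59 in siRNA-NC, against 2.10, 2.20 and 2.54 after knockdown, and these groups did not overlap. This held for 3 of the 16 pairs, all with the higher ratio after knockdown. They were HARS over HARS2, YARS over YARS2 (5.65 to 6.73 against 7.26 to 7.97) and IARS over IARS2. In the last the gap was small (at most 0.9175 against at least 0.9177). Among all single genes tested, 25.1% had groups that did not overlap in CPM, and 12.2% did so with the higher level after knockdown. The share over ratios of other gene pairs was not computed.

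**Figure D2:**
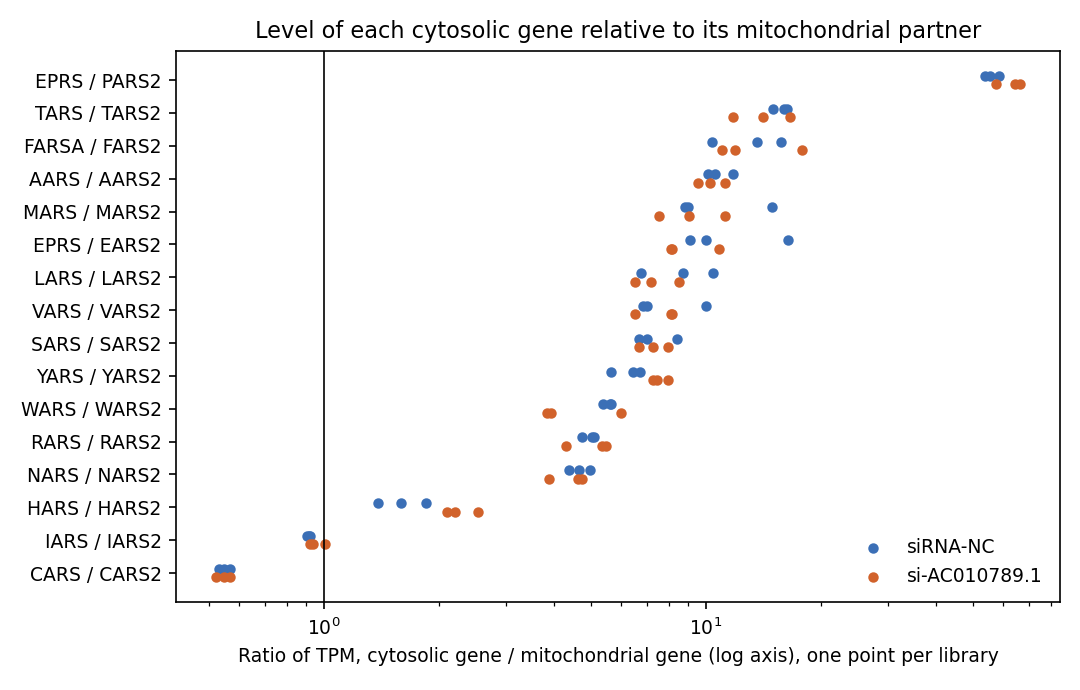
Ratio of the cytosolic to the mitochondrial gene in TPM for 16 amino acid pairs (log axis), one point per library, siRNA-NC in blue and si-AC010789.1 in orange. Only CARS over CARS2 lies below 1 in every library, and HARS over HARS2 shows orange points to the right of all blue points.

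The first comparison asked whether AC010789.1 knockdown changed the amount of any synthetase mRNA. None of the 39 genes passed edgeR's quasi-likelihood test at an adjusted p under 0.05, beside 0.944% of all 13764 genes tested (130 genes). At an unadjusted p under 0.05, 4 members passed, HARS2, VARS2, EARS2 and HARS, which is 10.3% of the members beside 17.2% of all genes. VARS2, EARS2 and HARS were higher, beside 8.25% of all genes, and HARS2 was lower, beside 8.91%. DESeq2 likewise called 0 members at an adjusted p under 0.05, beside 5.04% of the 10289 genes that it gave an adjusted p. PARS2 was given none. At an unadjusted p under 0.05 it had 3 members, beside 13.5% of genes. The cut-offs of the study, a p under 0.05 with an absolute log2 fold change over 1, were put here on edgeR's unadjusted p. They gave 0 members and 0.777% of all genes. The study itself put them on results of the program Cuffdiff and describes leaving out genes that differed within a group. That selection was not repeated here.

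Fold changes were small in both compartments. After knockdown 21 members were higher and 18 lower. The median log2 fold change was 0.02 over all members and -0.00059 over all genes tested. It was 0.02 for the cytosolic genes, -0.01 for the mitochondrial genes and 0.19 for the 3 scaffold genes. The 95% interval of the fold change lay within 1.5-fold in either direction for 37 of 39 members, including all 20 cytosolic genes, beside 61.9% of all genes tested. The exceptions were VARS2 and EARS2. The members were also the more abundant genes, with a median of 81.1 TPM, and the part of abundance in these narrow intervals was not tested.

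**Figure D3:**
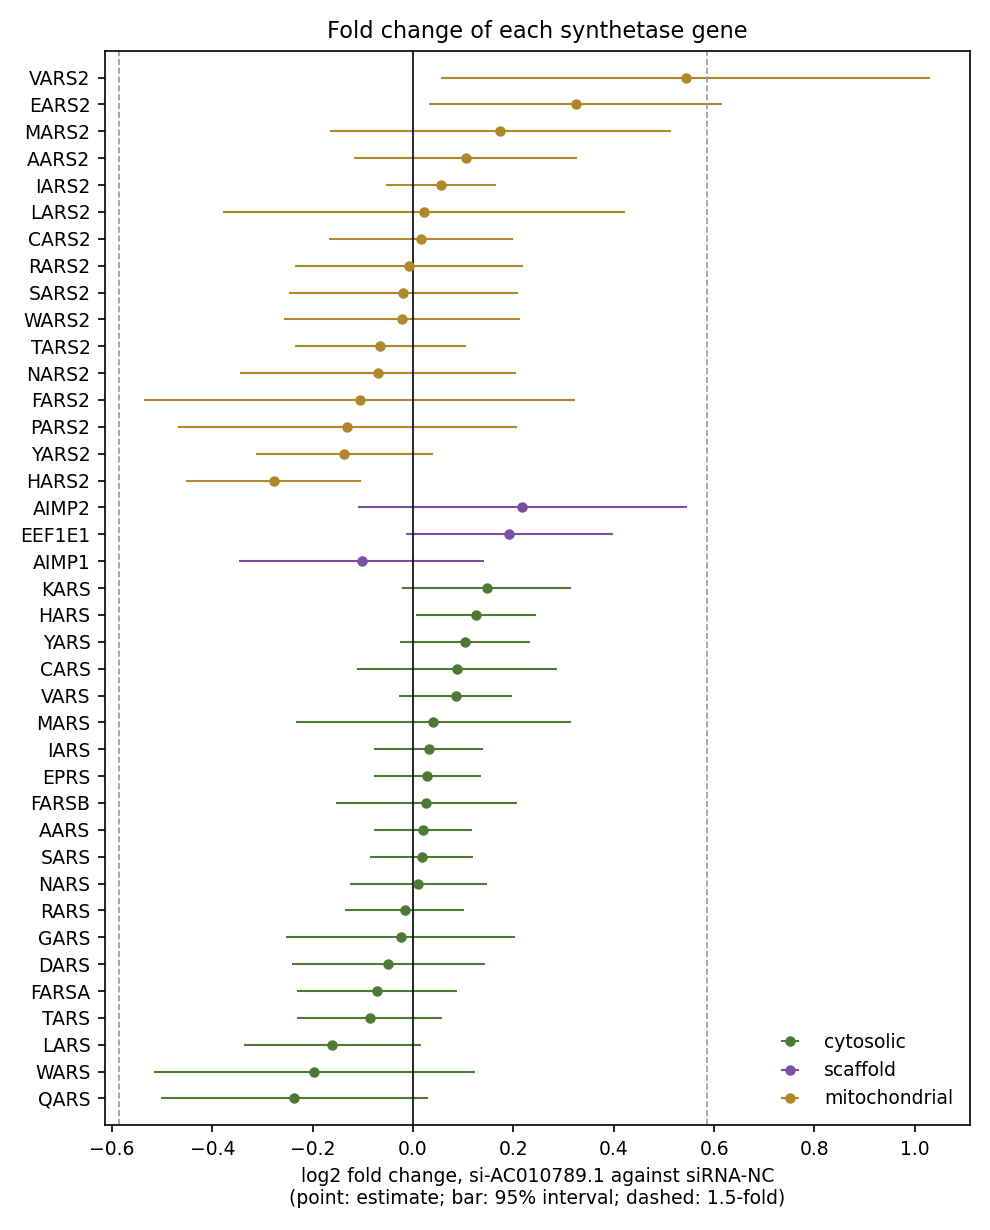
log2 fold change of each gene, si-AC010789.1 against siRNA-NC, with its 95% interval from edgeR's fit to 3 libraries per group. Dashed lines mark 1.5-fold in either direction. All cytosolic and scaffold intervals lie between the dashed lines, and those of VARS2 and EARS2 cross the right one.

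The summed level described the pool of synthetase mRNA in each library. The 20 cytosolic genes summed to 4044, 4056 and 4036 CPM in siRNA-NC and to 4059, 3957 and 4005 CPM in si-AC010789.1, so that the groups overlapped and the means differed by -0.943%. The 16 mitochondrial genes summed to 701, 706 and 685 CPM in siRNA-NC and to 722, 719 and 705 CPM in si-AC010789.1, a difference of 2.56%, and the lowest si-AC010789.1 library lay just below the highest siRNA-NC library. Scaled by total counts instead, it lay just above (704.7 against 703.8 CPM). The 3 scaffold genes summed to 118, 111 and 111 CPM and to 124, 115 and 124 CPM, which overlapped, a difference of 7.09%. In TPM the scaffold sums were 161.07, 151.6 and 154.8 in siRNA-NC, against 181.3, 161.42 and 184.2 after knockdown, which did not overlap, a difference of 12.7%. The ratio of cytosolic to mitochondrial CPM was 5.77, 5.75 and 5.89 in siRNA-NC, against 5.62, 5.51 and 5.68 after knockdown. On the CPM scale these ratios did not overlap between the groups, whereas in TPM they did (5.78, 5.70 and 5.91 against 5.65, 5.31 and 5.85).

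**Figure D4:**
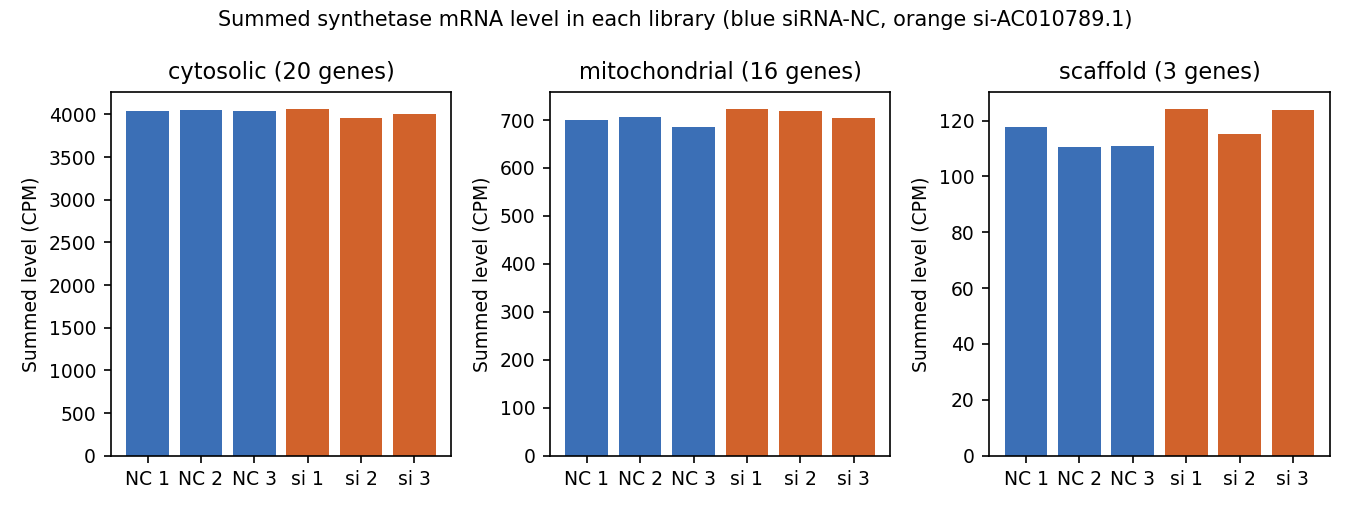
Summed level (CPM, axes from 0) of the cytosolic, mitochondrial and scaffold genes in each of the 6 libraries, siRNA-NC in blue and si-AC010789.1 in orange. The bars are nearly level within each panel.

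Groups that did not overlap in CPM were found for 8 members, or 20.5%, beside 25.1% of all genes tested. Of these, 6 were higher in si-AC010789.1 (HARS, KARS, YARS, EEF1E1, VARS2 and EARS2), beside 12.2% of all genes, and 2 were lower (HARS2 and YARS2), beside 12.9%. In TPM the groups of HARS, KARS, VARS2 and EARS2 overlapped, and those of YARS, EEF1E1, HARS2 and YARS2 did not.

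HARS2, the mitochondrial histidyl enzyme, had the smallest p of all members. Its level was 47.4, 44.6 and 42.0 CPM in siRNA-NC and 37.4, 36.4 and 36.7 CPM in si-AC010789.1. All si-AC010789.1 libraries lay below all siRNA-NC libraries, both in CPM and in TPM, at a log2 fold change of -0.28 (SE 0.073) and an adjusted p of 0.138 by edgeR. Its head-to-head neighbour HARS, the cytosolic histidyl enzyme, was at 85.7, 87.7 and 84.9 CPM and at 92.2, 96.4 and 93.0 CPM. The log2 fold change of HARS was 0.13 (SE 0.050) and an adjusted p of 0.271 by edgeR, and its groups overlapped in TPM. HARS lies at chr5:140673904-140691862 on the minus strand and HARS2 at chr5:140691426-140699318 on the plus strand in GENCODE 29 (GRCh38), so their 5′ ends overlap. HARS2 also shares exon bases with ZMAT2 and HARS with WDR55. As the strand setting of the counting was not given in the sources used here, reads in the shared bases cannot be assigned with certainty.

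VARS2, the mitochondrial valyl enzyme, had the largest fitted fold change with all libraries. It was at 27.0, 23.5 and 15.6 CPM in siRNA-NC and at 34.8, 28.6 and 32.9 CPM in si-AC010789.1, at a log2 fold change of 0.54 (SE 0.20) and an adjusted p of 0.249 by edgeR. Replicate 3 of siRNA-NC was the lowest, and the log2 fold change ran from 0.34 without it to 0.72 without replicate 1 of siRNA-NC. In TPM the groups overlapped, with 15.96, 15.5 and 11.6 TPM against 17.7, 14.5 and 16.2 TPM (means of 14.3 and 16.1 TPM). VARS2 shares exon bases with GTF2H4 on the same strand.

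EARS2, the mitochondrial glutamyl enzyme, was at 28.5, 29.03 and 21.9 CPM in siRNA-NC and at 33.1, 34.03 and 32.3 CPM in si-AC010789.1. The log2 fold change was 0.32 (SE 0.12) and an adjusted p of 0.2507 by edgeR. Replicate 3 of siRNA-NC was again the lowest, the log2 fold change without it was 0.20, and the TPM values overlapped. EARS2 shares exon bases with UBFD1 on the other strand, and altogether 23 of the 39 members shared exon bases with another gene, 19 of them on the other strand.

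YARS2 was lower in every si-AC010789.1 library, at 22.4, 21.9 and 22.1 CPM against 20.6, 20.5 and 19.4 CPM, with a log2 fold change of -0.14 (SE 0.074) and an adjusted p of 0.405. Its cytosolic counterpart YARS went the other way, from 152, 141 and 158 CPM to 163, 163 and 159 CPM, at a log2 fold change of 0.10 and an adjusted p of 0.387. Over the 16 pairs, the cytosolic gene was higher and the mitochondrial gene lower in 5, the reverse held in 1, both were higher in 6 and both lower in 4. No gene of any pair passed the adjusted test.

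The remaining mitochondrial genes differed little. IARS2 was at 251.4, 273.5 and 262.8 CPM in siRNA-NC and at 269, 277 and 272 CPM in si-AC010789.1, at a log2 fold change of 0.06. CARS2, LARS2, RARS2, SARS2 and WARS2 had log2 fold changes between -0.02 and 0.02. LARS2, the leucyl enzyme, nevertheless ranged from 37.0 to 55.6 CPM within siRNA-NC, so its 95% interval ran from -0.38 to 0.42. The other members, AARS2, FARS2, MARS2, NARS2, PARS2 and TARS2, lay between -0.13 and 0.17 with adjusted p of at least 0.588.

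Cytosolic synthetases that are not held in the multi-synthetase complex were considered next. AARS, the alanyl enzyme, was at 306, 319 and 310 CPM in siRNA-NC and at 322, 319 and 307 CPM in si-AC010789.1, with a 95% interval of 0.947 to 1.08 for the fold. TARS was at 673, 658 and 620 CPM and at 640, 569 and 628 CPM, at a log2 fold change of -0.09 and an adjusted p of 0.515. WARS, the tryptophanyl enzyme, whose gene is also known to be induced by interferon gamma, was at 143, 156 and 137 CPM and at 119, 108 and 154 CPM. Replicates 1 and 2 of si-AC010789.1 lay below all siRNA-NC libraries and replicate 3 did not, giving a log2 fold change of -0.20 (SE 0.13). Of the 12 genes in this class, which also holds VARS, SARS, NARS, GARS, CARS, FARSA, FARSB, YARS and HARS, 8 were higher and 4 lower, with a median log2 fold change of 0.02.

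The multi-synthetase complex joins 8 of the cytosolic members (DARS, EPRS, IARS, KARS, LARS, MARS, QARS and RARS) to the 3 scaffold proteins. Of these 11 genes, 6 were higher and 5 lower, the median log2 fold change was 0.03, and the intervals of all 11 lay within 1.5-fold. Their summed level was 1706, 1789 and 1759 CPM in siRNA-NC and 1761, 1735 and 1739 CPM in si-AC010789.1, with the si-AC010789.1 values inside the siRNA-NC range. LARS, the leucyl enzyme that also takes part in leucine sensing, was at 208, 230 and 206 CPM and at 188, 209 and 179 CPM, at a log2 fold change of -0.16 (SE 0.074) and an adjusted p of 0.33. QARS, the glutaminyl enzyme, was at 137, 145 and 170 CPM and at 138, 112 and 133 CPM, at a log2 fold change of -0.24 (SE 0.11) and an adjusted p of 0.342. Both overlapped between the groups.

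KARS, the lysyl enzyme, was at 131, 150 and 153 CPM in siRNA-NC and at 155, 160 and 166 CPM in si-AC010789.1, at a log2 fold change of 0.15 (SE 0.070) and an adjusted p of 0.351 by edgeR. In TPM its groups overlapped, with 139.6, 159.3 and 159.1 TPM in siRNA-NC against 166.7, 156.6 and 168.4 TPM after knockdown. Among the scaffolds, EEF1E1, also known as AIMP3, was at 23.8, 25.8 and 23.3 CPM and at 26.5, 27.0 and 29.7 CPM, at a log2 fold change of 0.19 (SE 0.086) and an adjusted p of 0.321. AIMP2 was at 48.6, 41.8 and 47.3 CPM and at 59.5, 43.1 and 57.4 CPM, where replicate 2 of si-AC010789.1 lay inside the siRNA-NC range. AIMP1 was at 45.1, 43.1 and 40.4 CPM and at 38.0, 45.1 and 36.6 CPM. The scaffolds therefore did not all lean one way.

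By the 2 structural families of the catalytic domain, 12 of 19 class I genes and 8 of 18 class II genes were higher, with median log2 fold changes of 0.03 and -0.02. EPRS, which has a domain of each family, was counted in both. EPRS was at 549, 574 and 549 CPM in siRNA-NC and at 592, 558 and 556 CPM in si-AC010789.1, a fold of 1.02 with a 95% interval of 0.948 to 1.10.

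The 6 genes with TGATGCAA in the promoter (AARS, CARS, IARS, MARS, NARS and TARS) were read side by side. None of their groups stood apart, 5 were higher and 1 lower, and their log2 fold changes ran from -0.09 for TARS to 0.09 for CARS. Their summed level was 1534, 1528 and 1482 CPM in siRNA-NC and 1518, 1478 and 1487 CPM in si-AC010789.1. A wider list of 12 synthetase genes known as ATF4 targets, which adds EPRS, GARS, LARS, SARS, WARS and YARS, gave 8 higher and 4 lower, a median log2 fold change of 0.02 and 0 genes called. All 12 intervals lay within 1.5-fold.

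Each member's transcripts were examined next, since the deposited counts were per transcript. Of 485 annotated transcripts of the members, 404 had counts and 175 passed the filter. By edgeR 0 of these had an adjusted p under 0.05, beside 0.0135% of 44297 transcripts tested, and 6 had an unadjusted p under 0.05, beside 5.74%. DESeq2 also called 0. The median SE of the log2 fold change was 0.42 for these transcripts and 0.08 for the member genes. The biological coefficient of variation was 0.698 for all transcripts and 0.170 for all genes. With this spread between libraries, the 0 calls do not exclude changes of single transcripts, large ones included. Transcript usage, the share that each transcript takes of its gene, was tested for 31 members with at least 2 tested transcripts. By edgeR 0 members had an adjusted p under 0.05, beside 1.93% of 9046 genes, and 3 had an unadjusted p under 0.05 (CARS2, AARS and IARS), beside 9.12%. The usage test rests on the same transcript counts, so its 0 calls do not exclude changed usage either.

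Of the member transcripts tested, 75 (42.9%) differed by over 2-fold between libraries of the same group, beside 49.3% of all transcripts tested. No member gene did so when its transcripts were summed, with a largest fold of 1.69 within a group, beside 7.80% of all genes. In 10 members, a single transcript took at least 95% in every library: AARS, EPRS, FARSB, AARS2, FARS2, IARS2, MARS2, PARS2, RARS2 and YARS2. For AARS this was ENST00000261772, with 98.5% to 99.3%. Another 16 members were led by different transcripts in different libraries.

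HARS showed how far the division moved within a group, and like TARS, RARS, GARS and KARS below it was picked for this after its values were seen. The protein-coding transcript ENST00000504366 had 558, 24 and 612 counts in siRNA-NC, against 305, 631 and 41 after knockdown. The protein-coding ENST00000504156 had 74, 511 and 165 counts and 275, 102 and 462 counts. The first was high where the other was low, in libraries of both groups, while the HARS sum stayed between 84.9 and 96.4 CPM.

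TARS behaved likewise. Its protein-coding transcript ENST00000455217 had 4044, 1980 and 4728 counts in siRNA-NC, against 2280, 4109 and 2011 after knockdown. ENST00000508361, annotated as a target of nonsense-mediated decay, had 553, 692 and 475 counts and 2370, 299 and 3325 counts. ENST00000508361 was thus high in replicates 1 and 3 of si-AC010789.1 alone, whereas ENST00000455217 was low in those libraries and also in replicate 2 of siRNA-NC. All decay-annotated transcripts of TARS together took 23.3%, 45.3% and 12.8% of its counts in siRNA-NC, against 32.7%, 12.1% and 43.7% after knockdown, and the groups overlapped. With all libraries the adjusted p for TARS usage was 0.879 by edgeR, and without replicate 2 of si-AC010789.1 it was 7.07e-05.

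RARS, the arginyl enzyme, was divided between the protein-coding ENST00000231572 and the decay-annotated ENST00000520013. The former had 1277, 840 and 837 counts in siRNA-NC, against 746, 818 and 747 after knockdown, and the latter 222, 1062 and 1077 counts, against 870, 861 and 936. Here only replicate 1 of siRNA-NC differed from the other libraries. In GARS the retained-intron transcript ENST00000478124 took 20.3% to 56.2% of the counts, with both groups covering much of that range. The leading transcript of FARSA, ENST00000588965, and that of VARS2, ENST00000477288, were also annotated as retaining an intron.

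**Figure D5:**
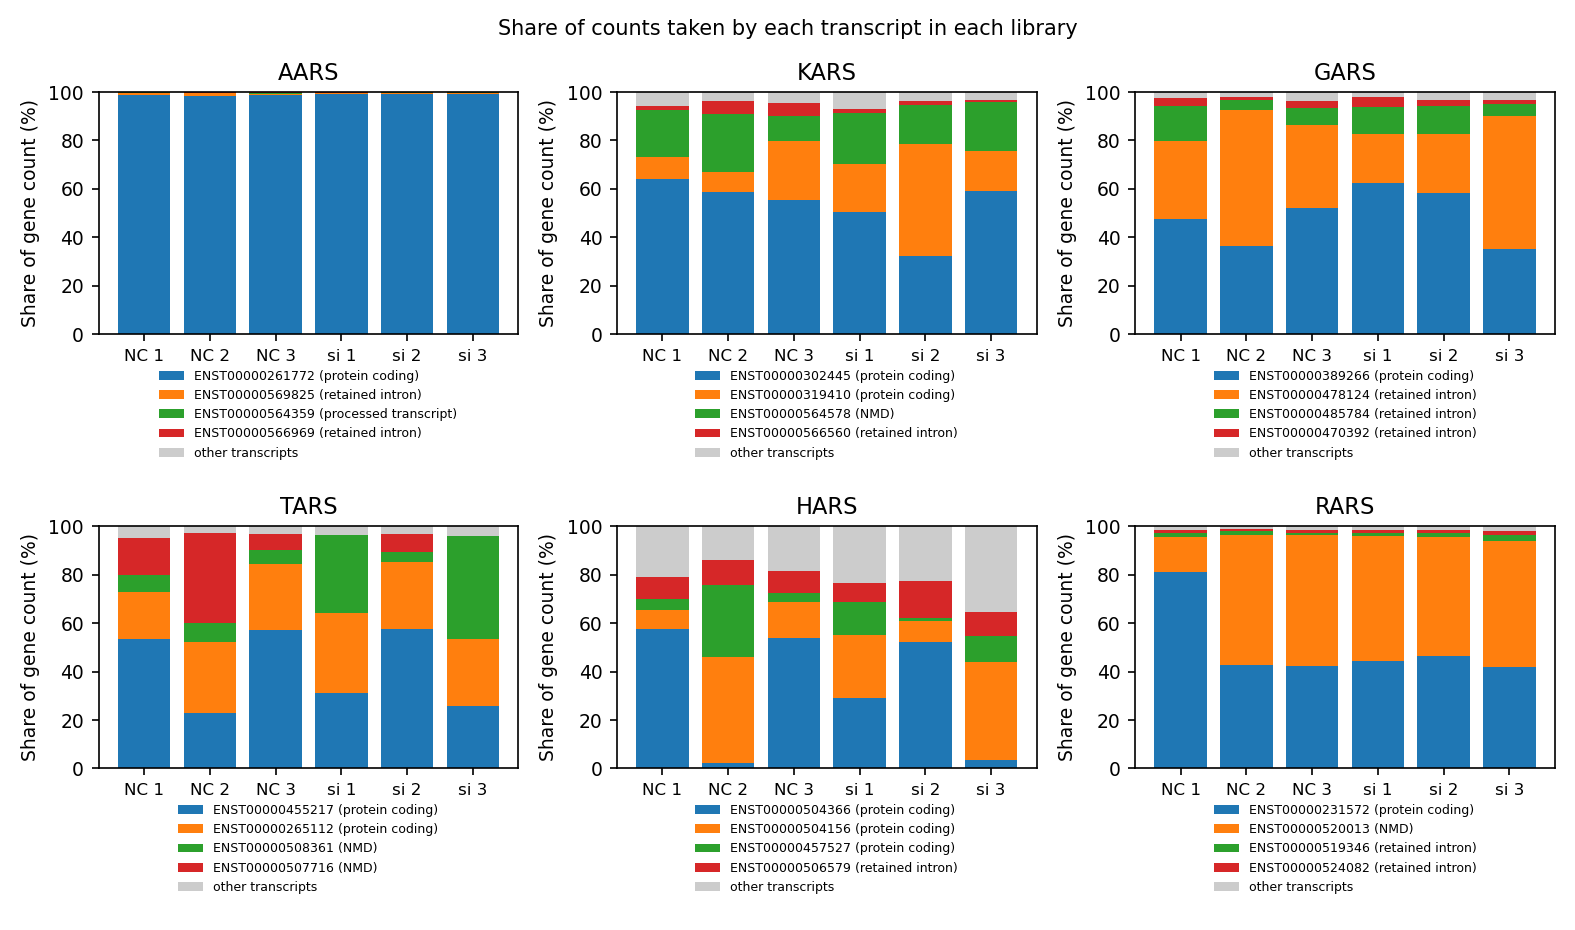
Share of each gene's counts (%) taken by its 4 leading transcripts and by all others, in each of the 6 libraries, for AARS, KARS, GARS, TARS, HARS and RARS. AARS is a single colour in every library, and the shares of the other genes vary between libraries of the same group.

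KARS makes its cytosolic and its mitochondrial enzyme from alternative transcripts, so their start codons are shown. ENST00000319410 contains a 180-base exon at chr16:75644283-75644462 (GENCODE 29, GRCh38, minus strand) that ENST00000302445 lacks, and its annotated start codon lies in that exon. The windows below begin with the start codon, in capitals.
KARS ENST00000302445, cytosolic form (minus strand of chr16:75647610-75647639): ATGgcggccgtgcaggcggccgaggtgaaa
KARS ENST00000319410, mitochondrial form (minus strand of chr16:75644399-75644428): ATGttgacgcaagctgctgtaaggcttgtt

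The cytosolic form had 950, 1171 and 1126 counts in siRNA-NC, against 893, 645 and 1213 after knockdown. The mitochondrial form had 135, 163 and 498 counts and 350, 927 and 343 counts. As a share of both, the mitochondrial form was 12.4%, 12.2% and 30.7% in siRNA-NC, against 28.2%, 59.0% and 22.0% after knockdown. Replicate 3 of siRNA-NC lay above replicates 1 and 3 of si-AC010789.1, so the groups overlapped. Neither transcript passed the test, with edgeR adjusted p of 0.993 and 0.938.

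The genes around the synthetases were taken from 7 lists holding 165 tested genes. Of these, 1 was called by edgeR (EEF1G), beside 0.944% of all genes. DESeq2 called 9, beside 5.04% of the genes that it gave an adjusted p. Counts at an unadjusted p under 0.05 in each list below stand beside 17.2% of all genes. EEF1G, the gamma subunit of the elongation factor complex that delivers charged tRNA to the ribosome, fell by 0.46 on the log2 scale (SE 0.063, adjusted p = 0.0386). It was at 738, 847 and 774 CPM in siRNA-NC and at 600, 555 and 562 CPM in si-AC010789.1, which did not overlap. The edgeR call was lost without the filter on low counts (adjusted p = 0.0663). It was also lost without any 1 library, each of the 6 in turn (adjusted p from 0.0734 to 0.138). DESeq2 called EEF1G with all libraries (adjusted p = 5.79e-06). It was the 1 gene called of 13 elongation factor genes, in a list whose median log2 fold change was 0.00026.

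In the list of the amino acid response and serine synthesis, 0 of 38 genes were called by edgeR and 10 had an unadjusted p under 0.05. Of these 10, PYCR1 and CEBPB were lower and the others higher, beside 8.91% of all genes lower and 8.25% higher. Of the 38, 21 were higher, and the median log2 fold change was 0.04. Groups did not overlap for 14 of the 38, beside 25.1% of all genes tested. Of these 14, again only PYCR1 and CEBPB were lower and the others higher, beside 12.9% of all genes lower and 12.2% higher. The list as a whole was not tested. ATF4 mRNA was at 243, 232 and 238 CPM in siRNA-NC and at 248, 222 and 240 CPM in si-AC010789.1, so that its groups overlapped (log2 fold change -0.0085). PSAT1, an enzyme of serine synthesis, was at 137, 140 and 140 CPM and at 163, 161 and 162 CPM, which did not overlap, at a log2 fold change of 0.22 (adjusted p = 0.0672). CEBPB, a transcription factor that pairs with ATF4, was at 58.7, 61.6 and 67.4 CPM and at 49.4, 45.4 and 44.0 CPM, at a log2 fold change of -0.44 (adjusted p = 0.0747). DESeq2 called both of these, and also TRIB3 and NUPR1, which it put higher, and PYCR1, which it put lower.

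Sensing of uncharged tRNA and eIF2 gave 0 called of 15 genes by edgeR and 6 at an unadjusted p under 0.05. The alpha subunit gene EIF2S1 was at 184, 190 and 196 CPM in siRNA-NC and at 157, 167 and 159 CPM in si-AC010789.1, at a log2 fold change of -0.24 (adjusted p = 0.0864). The gamma subunit gene EIF2S3 had a log2 fold change of -0.19 (adjusted p = 0.121). The beta subunit gene EIF2S2 was the only higher one of the 6, at a log2 fold change of 0.12 (adjusted p = 0.288). Of all 15 genes, 6 were higher and 9 lower. DESeq2 called EIF2S1.

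Maturation, editing and export of tRNA gave 0 called of 38 genes by edgeR and 3 at an unadjusted p under 0.05. TRNT1, which adds the CCA end to tRNA, was at 37.3, 35.0 and 41.5 CPM in siRNA-NC and at 30.3, 26.7 and 27.4 CPM in si-AC010789.1, at a log2 fold change of -0.43 (adjusted p = 0.104), and DESeq2 called it. DTD1, an enzyme that removes D-amino acids from tRNA, had a log2 fold change of -0.78 (adjusted p = 0.235).

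RNA polymerase III, which transcribes tRNA genes, gave 0 called of 25 genes by edgeR and 3 at an unadjusted p under 0.05. The shared subunit gene POLR1D had a log2 fold change of -0.41 (adjusted p = 0.117, called by DESeq2), and POLR3F one of -0.62 (adjusted p = 0.214). Mitochondrial translation factors gave 0 of 18 by edgeR and 2 at an unadjusted p under 0.05, which were MRRF (log2 fold change -0.21) and SLIRP (0.25). Amino acid sensing by mTORC1 gave 0 of 20 by edgeR and 3 at an unadjusted p under 0.05, with MTOR at a log2 fold change of -0.13 and NPRL3 at 0.24.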

How the data were processed

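RNA libraries of 6 samples (3 siRNA-NC, 3 si-AC010789.1) were made with a TruSeq kit and sequenced on a NovaSeq instrument. The submitters' processing notes name CASAVA 1.8 and TopHat2 2.0.6 and the builds mm10 and GRCh38, and the counter was not given in the sources used here. The authors deposited 1 table of raw counts per transcript, not normalized. Of its 98886 transcripts, 98803 matched GENCODE 29, and at least 99.9% of each library's counts belonged to them. Unmatched transcripts were left out.

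Transcript counts were summed per gene and scaled to CPM by TMM over tested genes, and TPM was computed from the counts and GENCODE transcript lengths. Genes were filtered with filterByExpr (minimum count 10, minimum total 15) and tested with edgeR 4.0.16 (quasi-likelihood F test, R 4.3.3) over all 13764 genes, with Benjamini-Hochberg adjustment. The same test was run on 44297 transcripts, and usage was tested with diffSpliceDGE. The scripts were tested on simulated counts. Intervals of fold changes are 95% intervals from the fit. DESeq2 1.42.0, other scaling factors, other filters, a replicate block and leaving out each library were alternatives.

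The members and the gene lists were chosen with earlier results of these data known. All members are named, and of each list the called genes or, with none, the 2 with the smallest unadjusted p. ATF4, EIF2S2 and the genes DESeq2 called were added after their values were seen. The study speaks of biological repeats from different cell generations, while the labels do not say which cultures the libraries came from, and p-values measure the spread between these libraries. The biological coefficient of variation was 0.170 for genes and 0.698 for transcripts. Replicate libraries differed by more than sampling noise (chi-square per degree of freedom 13.4 to 16.6). This does not show that they came from separate cultures. Each library was counted as 1 sample. With 3 against 3, an exact permutation test of a single value cannot go below 0.1, so none was used. Limits of 3 counts cover counting error only.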

Additional observations from a re-analysis of the deposited data

How the results depend on the processing

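The count of called synthetase genes was 0 under all 12 alternatives, with smallest adjusted p from 0.126 (DESeq2) to 0.259 (without replicate 2 of siRNA-NC). The called genes of the pathway lists numbered 1, against 9 with DESeq2, 0 with no filter on low counts, 0 with the replicate block and 0 to 0 on leaving out each library. The median log2 fold change ran from -0.00669 to 0.0380 for cytosolic genes and from -0.0216 to 0.0289 for mitochondrial genes on leaving out each library. Transcript usage gave 0 to 1 members, the 1 being TARS without replicate 2 of si-AC010789.1. RARS2 changed sign with upper-quartile factors (0.00818). The direction of 14 members changed on leaving out 1 library, with log2 fold changes of -0.104 to 0.00395 (DARS), -0.00188 to 0.0496 (EPRS), -0.0254 to 0.0678 (FARSB), -0.0986 to 0.0503 (GARS), -0.0681 to 0.123 (MARS), -0.0182 to 0.0579 (NARS), -0.0466 to 0.00477 (RARS), -0.0105 to 0.0356 (SARS), -0.0344 to 0.0635 (CARS2), -0.215 to 0.0217 (FARS2), -0.118 to 0.174 (LARS2), -0.0929 to 0.0390 (RARS2), -0.0807 to 0.0401 (SARS2) and -0.0753 to 0.0678 (WARS2). The other 25 members kept their direction, but 19 of them moved by over 1.5 times without 1 library, among them VARS2 (0.345 to 0.717), EARS2 (0.202 to 0.394), KARS (0.0827 to 0.186) and WARS (-0.358 to -0.0889). The summed cytosolic and mitochondrial levels moved by less than the spread between replicates with TPM or with total counts. The cause of these shifts was not tested. Fold changes within such ranges cannot be told from 0 at this depth and replicate number.

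Replicates share numbers in the labels, but the deviations of same-numbered libraries correlated at 0.112, 0.0108 and 0.0167, and not every library correlated best with its own number, and the labels do not say that a number marks a shared culture, so the numbers were not taken as pairs. With the replicate block 0 members were called (smallest adjusted p = 0.235), and EEF1G, the 1 gene called in the pathway lists, was no longer called (adjusted p = 0.174).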
